A study of Mus musculus with 33 samples.

Results

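Liver RNA from 9 genes of peroxisomal fatty acid oxidation, omega oxidation and acyl-CoA hydrolysis is described here across wild-type mice and mice with a mutant inflammasome sensor, each on 2 diets. The genes were Ehhadh, Hsd17b4, Acaa1a and Acaa1b of peroxisomal beta-oxidation, Cyp4a10 and Cyp4a14 of omega oxidation, and the acyl-CoA thioesterases Acot1, Acot3 and Acot4. They were chosen by name, as the rows of the gene count table whose gene symbol equalled 1 of these symbols, which gave 9 of the 19169 genes in the table. All 9 passed the filter on low counts, which left 14934 genes to test.

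Peroxisomes shorten very long, branched and dicarboxylic fatty acids that mitochondria handle poorly. In each cycle a bifunctional enzyme (Ehhadh or Hsd17b4) adds water and removes hydrogen, and a thiolase (Acaa1a or Acaa1b) splits off acetyl-CoA. Cytochromes of the Cyp4a family oxidise the far end of a fatty acid and so feed dicarboxylic acids into this cycle, while acyl-CoA thioesterases release free fatty acid and coenzyme A. In rodent liver many of these genes are known targets of the nuclear receptor PPAR-alpha, which is activated by fatty acids in fasting and by fibrate drugs.

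The knock-in mice (KI) carried the heterozygous Nlrp3 A350V allele, switched on by tamoxifen through an inducible Cre (Nlrp3A350V/+CreT), and were set beside wild-type mice (WT). The Nlrp3 protein senses danger signals and assembles the inflammasome, which activates a caspase. For 6 weeks the mice ate control chow with placebo (control) or chow with GS-444217, an inhibitor of the stress kinase ASK1 (ASK1i). WT control had 10 libraries, 7 from females and 3 from males. WT ASK1i had 8, with 4 of each sex, KI control had 5, of which 1 was female, and KI ASK1i had 10, with 5 of each sex. The labels do not give the ages, the cells in which the Cre acts, whether WT mice received tamoxifen, or that each library came from a separate mouse. The p-values therefore measure the spread between these libraries, which may be technical.

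Total counts ran from 28099685 to 40008114 per library, and levels are given as CPM, counts scaled to library size with the trimmed mean of M-values. Nlrp3 itself had a median of 3.36 CPM (1.62 to 4.96) in WT control, 2.63 CPM (2.38 to 3.88) in WT ASK1i, 9.84 CPM (7.87 to 15.6) in KI control and 8.46 CPM (2.10 to 11.0) in KI ASK1i. The lowest KI value, 2.10 CPM, belonged to the library labelled KI ASK1i replicate 5. On the first principal component that library lay at -59.2, between the WT libraries (-74.1 to -45.9) and apart from the other 9 KI ASK1i libraries (54.9 to 103). It was kept unless a sentence says otherwise. For the 9 genes most results that rest on it are given without it too, and those for lists of other genes only with it. Summed over 14 hepatocyte markers, levels ran from 122964 to 151158 CPM in WT control and from 44969 to 69036 CPM in KI control, a smaller share of hepatocyte marker RNA in KI liver. Summed neutrophil markers ran from 16.1 to 38.9 CPM and from 869 to 4098 CPM in the same groups.

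On control chow, 8 of the 9 genes were lower in KI than in WT liver, and Acaa1a did not pass the test. For each of the 8, all 5 KI control libraries lay below all 10 WT control libraries, which held for 12.8% of all genes tested. Log2 fold changes ran from -1.15 for Hsd17b4 to -10.31 for Cyp4a14 (edgeR quasi-likelihood test, adjusted p from 3.38e-06 to 0.000697). Over all genes tested, 28.9% were called lower in this comparison. The median log2 fold change was -2.68 over the 9 genes and -0.03 over all genes. Together the 9 genes had a median of 11931 CPM in WT control (5342 to 21433) and 951 CPM in KI control (804 to 1333). In bulk tissue, fewer hepatocytes and less RNA per hepatocyte cannot be told apart.

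**Figure D1:**
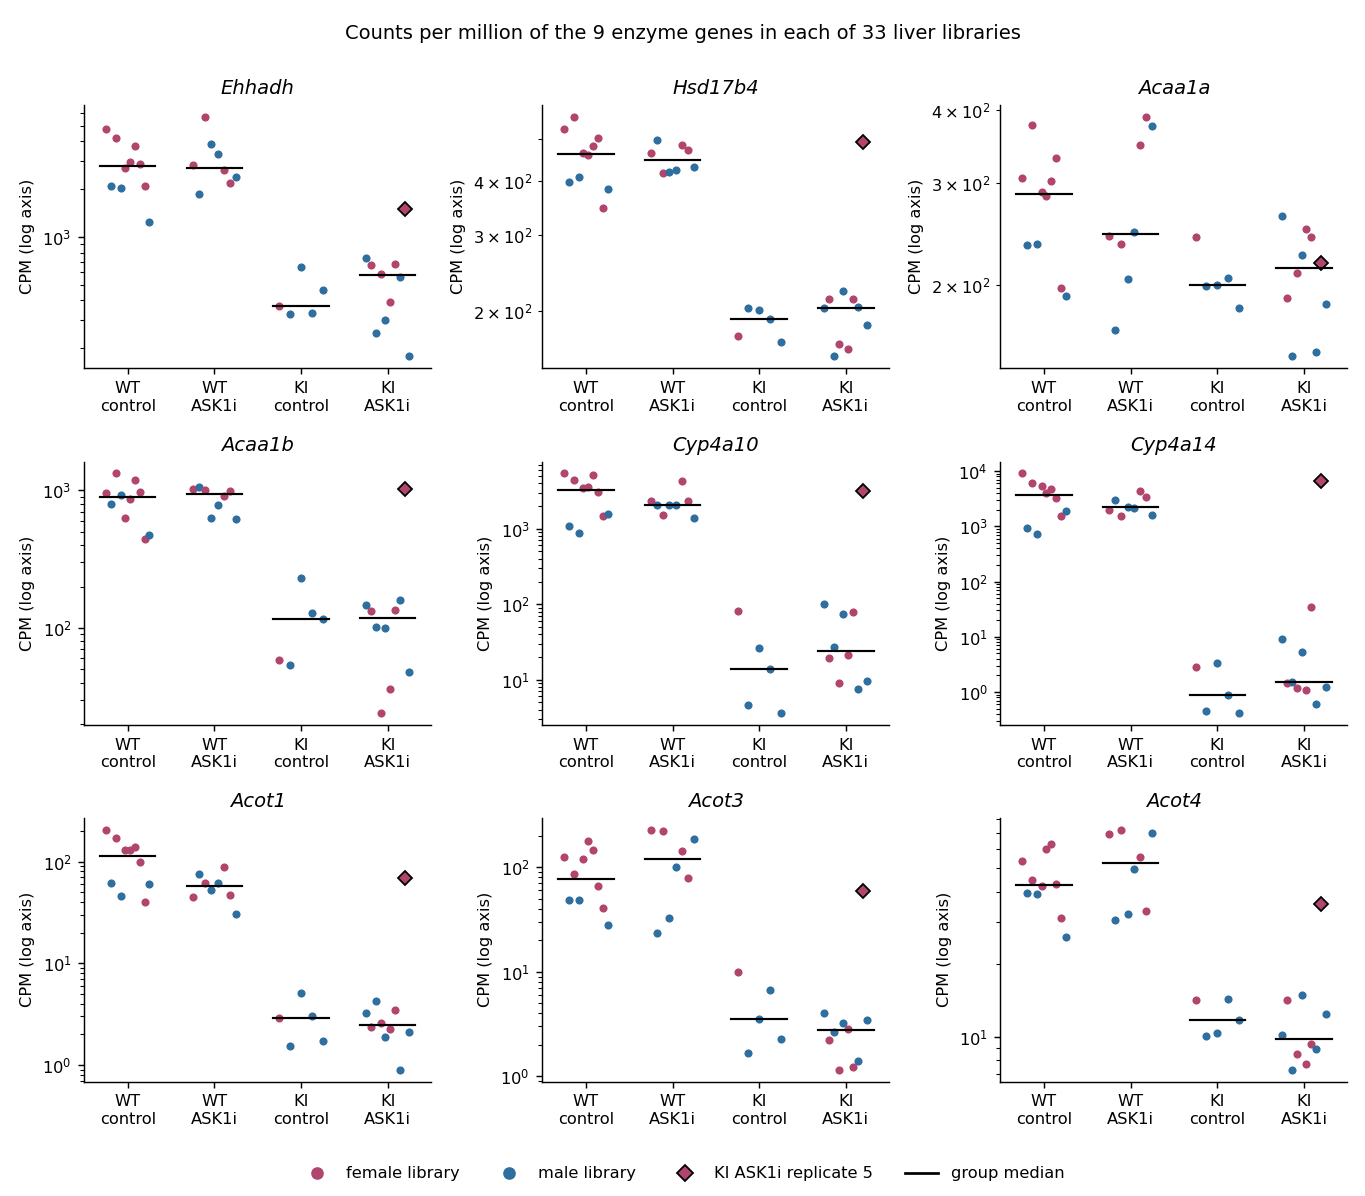
Scaled counts (CPM, log axis) of each of the 9 genes in each of the 33 liver libraries, by genotype and diet; bars are group medians, colour gives the sex, and the diamond is the library labelled KI ASK1i replicate 5. In 8 panels the 5 KI control libraries sit below every WT control library, and in the Acaa1a panel the groups overlap.

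Cyp4a10 and Cyp4a14, which hydroxylate the terminal carbon of fatty acids, had the largest falls. Cyp4a14 (chromosome 4, 115486200 to 115496141, mm10) had between 716 and 9052 CPM in WT control libraries, with a median of 3645. In KI control replicates 1, 1P, 2, 3 and 4 it had 2.87, 0.449, 3.33, 0.871 and 0.417 CPM. Every KI control library lay far below every WT control library, with 15 to 138 counts of this gene against 22521 to 274351 in WT. The fitted difference was -10.31 (SE 2.19, adjusted p = 0.000227), a 1273-fold lower level. Cyp4a10 had between 879 and 5398 CPM in WT control (median 3269) and 80.4, 4.59, 26.6, 14.0 and 3.62 CPM in KI control replicates 1, 1P, 2, 3 and 4. The highest KI library, the only female, was also the highest for Acot3. The Cyp4a10 difference was -6.62 (SE 1.17, adjusted p = 2.34e-05), a 98.3-fold lower level.

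Reads of the Cyp4a genes are partly shared. Of the 50-base windows along a Cyp4a10 transcript, 30.5% also occur in another gene (25% in Cyp4a32, 15.3% in Cyp4a31), and the position deposited for Cyp4a10 (chromosome 4, 115518287 to 115622366) reaches past Cyp4a31 to the locus of Cyp4a32. For Cyp4a14 the shared windows were 0.245%. The sum over Cyp4a10, Cyp4a14, Cyp4a31 and Cyp4a32, which does not depend on how reads were divided among them, fell by 6.60 on the log2 scale (SE 1.25, edgeR adjusted p = 5.84e-05). That sum was 6825 ± 4271 CPM (SD, n = 10) in WT control and 45.2 ± 45.0 CPM (n = 5) in KI control. Cyp4a31 and Cyp4a32 alone fell by less, with log2 fold changes of -1.45 (SE 0.46) and -2.18 (SE 0.45).

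The bifunctional enzymes of the peroxisome fell by unequal amounts. Ehhadh, which acts on straight-chain and dicarboxylic substrates (chromosome 16, 21761285 to 21787834), ranged from 1243 to 4812 CPM in WT control (median 2818). In KI control replicates 1, 1P, 2, 3 and 4 it had 372, 329, 654, 335 and 463 CPM. All 5 values lay below the lowest WT library, and the fall was 2.36 (SE 0.38, edgeR adjusted p = 6.42e-06). Hsd17b4, the enzyme for branched-chain and bile acid intermediates, ranged from 347 to 562 CPM in WT control (median 461). It had 175, 204, 201, 192 and 169.8 CPM in the same KI libraries, a narrow band below every WT library. Its fall was 1.15 (SE 0.18, adjusted p = 3.38e-06), the smallest of the 8. Neither transcript shares a 50-base window with another gene.

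The thiolases Acaa1a and Acaa1b are neighbouring copies on chromosome 9 with the same enzymatic role. Acaa1b (119148043 to 119157093) ranged from 443 to 1326 CPM in WT control (median 899.9) and had 58.2, 53.9, 229, 129 and 116 CPM in KI control replicates 1, 1P, 2, 3 and 4. Its groups did not overlap, and it fell by 2.68 (SE 0.63, edgeR adjusted p = 0.000697). Acaa1a (119341294 to 119350295) ranged from 191 to 377 CPM in WT control (median 287) and had 242, 199, 199.99, 206 and 183 CPM in KI control. Only 1 of 5 KI libraries lay below all WT libraries, and the difference of -0.26 (SE 0.16, 95% interval -0.57 to 0.06, adjusted p = 0.172) did not pass the test. The copies share 34% of the windows of Acaa1a and 35.5% of those of Acaa1b, so their sum was also tested. It fell from 1131 ± 335 CPM (SD, n = 10) to 328 ± 70.5 CPM (n = 5), by 1.59 on the log2 scale (SE 0.30, adjusted p = 5.02e-05). The 250 bases before each gene's start are shown because the copies moved by different amounts; they come from RefSeq (GRCm38.p6) and are written on the gene's strand. The start is that of RefSeq's promoter entry, which for Acaa1a equals the deposited start; RefSeq's gene record begins earlier, at 119341028. Acaa1a lies on the plus strand (chr9:119341044-119341293) and Acaa1b on the minus strand (chr9:119157094-119157343).
Acaa1a: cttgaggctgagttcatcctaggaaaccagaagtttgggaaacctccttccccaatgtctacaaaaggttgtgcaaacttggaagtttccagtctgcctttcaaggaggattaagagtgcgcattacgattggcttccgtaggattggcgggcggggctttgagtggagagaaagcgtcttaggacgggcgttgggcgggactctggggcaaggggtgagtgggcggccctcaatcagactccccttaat
Acaa1b: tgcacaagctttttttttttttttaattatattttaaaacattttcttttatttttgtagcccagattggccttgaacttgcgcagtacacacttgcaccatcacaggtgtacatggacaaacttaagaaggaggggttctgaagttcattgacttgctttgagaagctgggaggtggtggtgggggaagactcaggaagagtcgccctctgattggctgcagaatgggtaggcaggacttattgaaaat

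The thioesterases sit side by side on chromosome 12. Acot1 (84009502 to 84017669), a cytosolic enzyme for long-chain acyl-CoA, ranged from 39.8 to 204 CPM in WT control (median 114) and had 2.87, 1.52, 5.07, 3.02 and 1.72 CPM in KI control replicates 1, 1P, 2, 3 and 4. It fell by 4.66 (SE 0.75, edgeR adjusted p = 7.3e-06), a 25.2-fold lower level, with no overlap between the groups. Acot3 (84052151 to 84059564), a peroxisomal enzyme, ranged from 27.8 to 180.3 CPM in WT control (median 76.6) and had 9.95, 1.67, 3.52, 6.74 and 2.28 CPM in KI control. It fell by 3.61 (SE 0.78, adjusted p = 0.000284). Acot4 (84038379 to 84044723), the peroxisomal thioesterase for succinyl-CoA and other dicarboxylic acyl-CoAs, fell least of the 3. It ranged from 26.0 to 63.3 CPM in WT control (median 42.6) and had 14.2, 10.1, 10.3, 14.4 and 11.7 CPM in KI control. Its groups did not overlap either, and the fall was 1.65 (SE 0.31, adjusted p = 4.15e-05).

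Acot1 shares 33.2% of its windows with other genes, 23.9% with Acot2, which encodes the mitochondrial counterpart. Acot3 shares 19.5% and Acot4 shares 4.87%. The sum over Acot1 to Acot6 fell from 259 ± 117 CPM (SD, n = 10) to 25.1 ± 7.32 CPM (n = 5), by 2.86 on the log2 scale (SE 0.47, edgeR adjusted p = 9.27e-06). The upstream 250 bases of Acot3 (first of 2 listed starts, chr12:84051894-84052143) and Acot4 (chr12:84038129-84038378), both on the plus strand and before the starts of RefSeq's promoter entries (the gene record of Acot4 begins earlier, at 84037254), are shown because the pair varied together more closely than any other across WT livers. Capitals mark 2 half-sites of the PPAR element (AGGTCA, 1 base apart) found on the opposite strand with 2 mismatches.
Acot3: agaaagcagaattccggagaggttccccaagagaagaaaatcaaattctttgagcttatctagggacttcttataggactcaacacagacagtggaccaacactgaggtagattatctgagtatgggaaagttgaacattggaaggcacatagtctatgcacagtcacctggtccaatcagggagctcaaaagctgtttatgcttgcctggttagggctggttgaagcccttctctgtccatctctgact
Acot4: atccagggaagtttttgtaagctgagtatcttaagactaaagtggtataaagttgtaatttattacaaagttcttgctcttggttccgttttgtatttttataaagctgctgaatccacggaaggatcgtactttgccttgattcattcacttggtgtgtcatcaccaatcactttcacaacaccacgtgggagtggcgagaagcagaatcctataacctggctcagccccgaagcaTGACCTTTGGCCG

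The search covered both strands from 250 bases before to 50 after the start of 32851 RefSeq promoters, with overlapping matches counted once per promoter. With up to 2 mismatches the paired motif was in 3.86% of them, with up to 1 in 0.554%, and without a mismatch in 0.0396%. A single AGGTCA was in 16.3%. Among Ehhadh, Acaa1a, Acaa1b, Acot1, Acot3 and Acot4 the paired motif occurred in Acot4 alone, at 13 bases before its start. A match is a run of letters and not a measured site, and its absence says only that these letters are not in this window. Cyp4a10, Cyp4a14 and Hsd17b4 were not searched.

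Limits of the control-chow result concern composition and batches. Libraries were scaled to the median ratio over the hepatocyte markers, which raised the median of all genes by 0.68. Under this scaling 8 genes remained lower (Hsd17b4 -0.48, Acot4 -0.98, Ehhadh -1.71, Acaa1b -2.04, Acot3 -2.94, Acot1 -3.99, Cyp4a10 -5.91, Cyp4a14 -9.58). Acaa1a was then higher by 0.43 (edgeR adjusted p = 0.0318). The summed markers fell by more than that scaling removed, from a median of 143220 CPM in WT control to 54232 CPM in KI control. Scaling to their sum was not run, so the smaller falls, such as that of Hsd17b4, may depend on this choice. No L code of the titles, whose meaning the labels do not state, holds both WT control and KI control libraries. With that code in the model all 8 kept their call but Cyp4a14 was -6.79, Cyp4a10 -4.76 and Acot1 -2.76. These estimates are indirect, since that model links the control groups only through ASK1i libraries, KI ASK1i replicate 5 included. They therefore cannot separate genotype from the L code by a direct comparison. In the male libraries alone the 8 were again called, with Cyp4a14 at -10.66 and Hsd17b4 at -0.98.

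On the ASK1i diet, all 9 genes were lower in KI than in WT liver, where 28.8% of all genes were called lower. Ehhadh, at 1874 to 5702 CPM in WT ASK1i (median 2741) and 178 to 1503 CPM in KI ASK1i (median 576), was the only gene of the 9 with all 10 KI libraries below all 8 WT libraries, which held for 3.91% of all genes. It fell by 2.47 (SE 0.29, edgeR adjusted p = 2.66e-08). For the other 7 called on control chow, 9 of 10 KI libraries lay below every WT library, and at least 9 of 10 did so for 12.9% of all genes. The exception was each time replicate 5, whose levels fell within the WT ASK1i range for 7 of 9 genes and within the WT control range for 9 of 9.

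Cyp4a14 shows what that library does to the averages. It ranged from 1539 to 4291 CPM in WT ASK1i (median 2201). KI ASK1i had a lowest value of 0.609, a median of 1.501 and a highest of 6555 CPM, the last being replicate 5, and the next highest was 34.0 CPM in replicate 4. With replicate 5 its log2 fold change was -3.78 (SE 1.29, adjusted p = 0.0132), and without it -8.92 (SE 0.57, adjusted p = 1.19e-13). The call with replicate 5 included was lost with group as the only term (-1.94, adjusted p = 0.199) and in the libraries with numbered titles alone (-3.69, adjusted p = 0.0629).

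The same library shifted the other omega and thioesterase genes. Cyp4a10 ranged from 1405 to 4345 CPM in WT ASK1i (median 2084) and from 7.60 to 101 CPM in the 9 other KI libraries (median 21.5), against 3200.1 CPM in replicate 5. Its log2 fold change was -3.85 (SE 0.78, edgeR adjusted p = 0.000105) with replicate 5 and -5.76 (SE 0.48, adjusted p = 2.34e-11) without it. Acot1 ranged from 30.5 to 88.8 CPM in WT ASK1i (median 57.1) and from 0.899 to 4.27 CPM in the 9 others, and fell by 3.13 (SE 0.52) or 4.36 (SE 0.29) without replicate 5. Acot3, at 23.4 to 227 CPM in WT ASK1i (median 121), had the widest WT spread of the thioesterases on this diet. It had 1.16 to 4.02 CPM in the 9 other KI libraries and 59.0 CPM in replicate 5, and fell by 4.36 (SE 0.60) or 5.48 (SE 0.48) without that library. Acot4, at 30.5 to 72.1 CPM in WT ASK1i and 7.33 to 15.0 CPM in the 9 others, fell by 2.01 (SE 0.24) or 2.28 (SE 0.20).

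The peroxisomal cycle enzymes followed. Hsd17b4 ranged from 418 to 497 CPM in WT ASK1i and from 157 to 223 CPM in the 9 other KI libraries, with 492 CPM in replicate 5. Its fall was 1.01 (SE 0.14, edgeR adjusted p = 3.96e-07), or 1.21 (SE 0.09) without replicate 5. Acaa1b ranged from 615 to 1051 CPM in WT ASK1i and from 24.1 to 159.8 CPM in the 9 others, and fell by 2.29 (SE 0.46) or 3.15 (SE 0.35). Acaa1a again overlapped, at 167 to 389 CPM in WT ASK1i and 151 to 262 CPM in KI ASK1i, with 2 of 10 KI libraries below all WT libraries. Its fall of 0.37 (SE 0.13, adjusted p = 0.0176) was not called without WT ASK1i replicate 6 (adjusted p = 0.0633) or replicate 7 (adjusted p = 0.101), nor in the male libraries alone (adjusted p = 0.255) or those with numbered titles alone (adjusted p = 0.069). Scaled to hepatocyte markers, which raised the median of all genes by 0.60, it was 0.27 higher (adjusted p = 0.101), while the other 8 kept their calls.

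**Figure D2:**
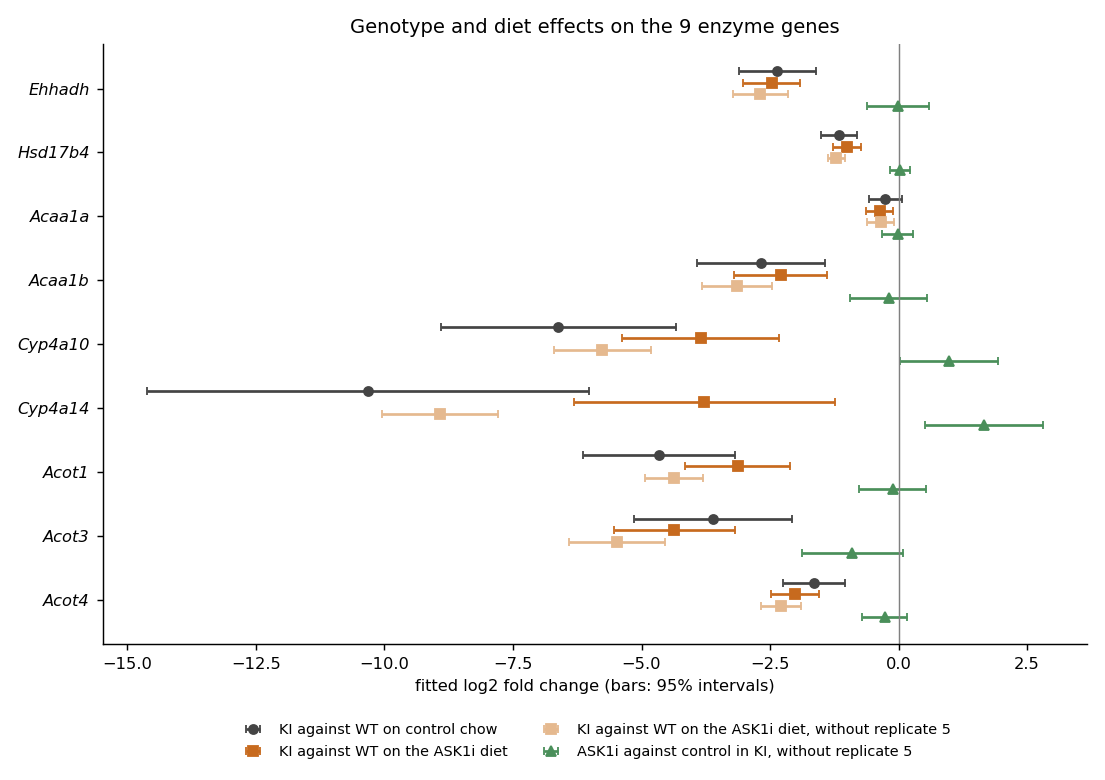
Fitted log2 fold changes of the 9 genes (x axis) with 95% intervals, for KI against WT on each diet; the pale squares and the green triangles leave out the library labelled KI ASK1i replicate 5 and show, in that order, the genotypes under ASK1i and the diets within KI. Cyp4a14 lies at -3.78 with that library and at -8.92 without it, and the inhibitor's values without it lie between -0.90 and 1.66.

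The inhibitor changed none of the 9 genes in WT liver by the test. By edgeR 0 of 9 passed, where 1.4% of all genes were called, and 0 had an unadjusted p under 0.05, as 13.9% of all genes had, and DESeq2 called 0 of 9 and 2.84% of all genes. Acot1 had the largest ratio of the control to the ASK1i mean (1.87), with means going from 108 ± 56.1 CPM (SD, n = 10) to 57.9 ± 18.5 CPM (n = 8). Its fitted difference was -0.55 (SE 0.49, 95% interval -1.51 to 0.41, adjusted p = 0.666). KI ASK1i replicate 5 enters this test, since all libraries share 1 estimate of the spread. Without that library the Acot1 difference was -0.68 (SE 0.25, edgeR adjusted p = 0.146), and 0 of 9 genes were called. The count at an unadjusted p was made only with it. Acot3 went the other way, from 89.2 ± 51.6 to 126.7 ± 81.0 CPM, a difference of 0.90 (SE 0.53, 95% interval -0.15 to 1.95, adjusted p = 0.479). For 3 of 8 WT ASK1i libraries Acot3 lay above all WT control libraries, and for 1 it lay below all of them. The 95% intervals were wide for Cyp4a10 (-1.35 to 1.42) and Cyp4a14 (-3.26 to 3.26), and narrow for Hsd17b4 (-0.23 to 0.32) and Acaa1a (-0.19 to 0.33). The wide ones depended on KI ASK1i replicate 5 through the shared spread. Without that library the WT differences were 0.01 (SE 0.39) for Cyp4a10, -0.007 (SE 0.41) for Cyp4a14 and 0.75 (SE 0.39) for Acot3.

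In KI liver 0 of 9 genes passed with edgeR, where 0.0536% of all genes were called, and 2 had an unadjusted p under 0.05, against 10.3% of all genes. The 2 were Cyp4a14 (6.53, SE 2.02, adjusted p = 0.365) and Cyp4a10 (2.81, SE 0.97, adjusted p = 0.429). Without replicate 5 they were 1.66 (SE 0.58, adjusted p = 0.4596) and 0.98 (SE 0.48, adjusted p = 0.566). Cyp4a14 exceeded every KI control library in 4 of 10 KI ASK1i libraries, at 6555, 34.0, 9.29 and 5.27 CPM, all far below the WT range except replicate 5. DESeq2 called Cyp4a14 alone, at 6.39 (adjusted p = 4.52e-07), with replicate 5 included, and 0.248% of all genes. Without that library DESeq2 called 0 of 9 and 0.185% of all genes, with Cyp4a14 at 1.58 (adjusted p = 0.254). In edgeR with replicate 5 included, the other 7 genes had log2 fold changes between -0.04 and 0.97. The 3 thioesterases without replicate 5 stood at -0.11 (Acot1), -0.90 (Acot3) and -0.27 (Acot4), with adjusted p-values of 0.942, 0.603 and 0.733.

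The test of the difference itself, the interaction of genotype and diet, was passed by 0 of 9 genes in edgeR, and 0% of all genes were called. An unadjusted p under 0.05 was reached by 2 of the 9 and by 8.38% of all genes. DESeq2 called Cyp4a14 (6.38, adjusted p = 0.0023), among 0.107% of all genes, and without replicate 5 it called 0 of 9 and 0.214% of all genes. Without replicate 5 the edgeR interaction for Cyp4a14 was 1.67 (SE 0.71, adjusted p = 0.458), and for Acot3 it was -1.65 (SE 0.62, adjusted p = 0.409).

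Enzymes with related roles shifted relative to each other within a library, a measure in which library scaling cancels. Since CPM is not corrected for transcript length, only the change of each difference between groups is read. Read sharing between copies does not cancel, and its part in these shifts was not tested. Windows shared with other genes were 30.5% for Cyp4a10, 34% for Acaa1a, 35.5% for Acaa1b and 19.5% for Acot3. The difference of log2 CPM of Acaa1b minus Acaa1a was 1.60 ± 0.31 (SD, n = 10) in WT control and -1.01 ± 0.94 (n = 5) in KI control, a shift of -2.61. That of Ehhadh minus Hsd17b4 shifted by -1.44, from 2.59 ± 0.41 to 1.15 ± 0.43. The omega hydroxylases shifted most, by -3.74 for Cyp4a14 minus Cyp4a10, from 0.17 ± 0.35 to -3.56 ± 0.78. The peroxisomal thioesterases shifted by -2.42 for Acot3 minus Acot4, from 0.82 ± 0.55 to -1.61 ± 0.85. Each shift had an exact two-sided permutation p of 0.000333 (adjusted over 16 tests, 0.000888); this is the smallest p that 5 libraries against 10 can give, since the groups did not overlap. For Ehhadh minus Hsd17b4 they nearly touched, at 1.70 in both. The sexes are unevenly spread over these groups, and WT males lay low for this pair and for Acot3 minus Acot4. Averaged within sex, the shifts were -2.84, -1.22, -3.81 and -1.93 in the same order, each with an exact permutation p within sex of 0.00357, the smallest that 280 regroupings can give (adjusted 0.00714).

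On the ASK1i diet the shifts between genotypes were -2.64 for Acaa1b minus Acaa1a, -1.46 for Ehhadh minus Hsd17b4, -3.02 for Cyp4a14 minus Cyp4a10 and -2.84 for Acot3 minus Acot4 (exact permutation test, adjusted p from 0.000366 to 0.00105). Without replicate 5 they were -3.00, -1.505, -3.45 and -3.13. For replicate 5 the Cyp4a14 minus Cyp4a10 difference was 1.03, above all 8 WT ASK1i libraries, and its Ehhadh minus Hsd17b4 difference lay below all of them. None of the 8 comparisons between diets passed (exact permutation test, adjusted p at least 0.766).

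**Figure D3:**
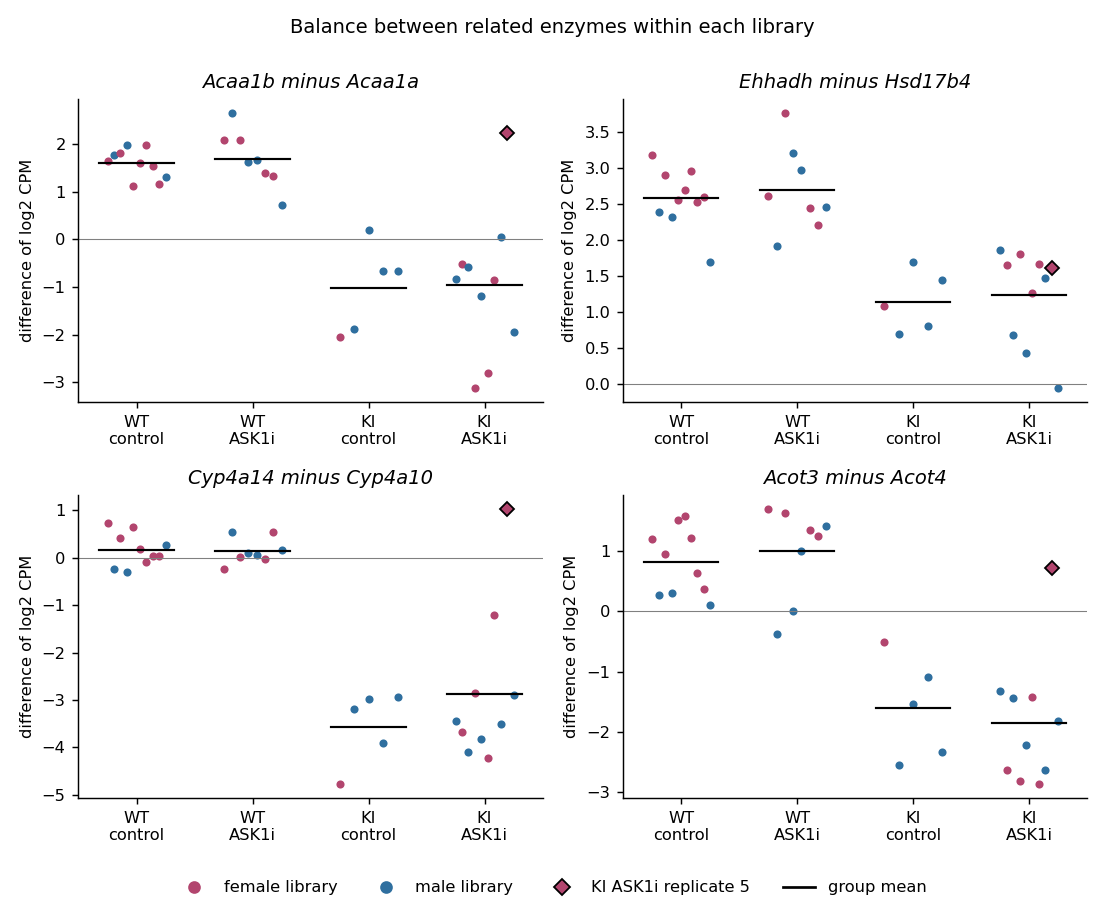
Difference of log2 CPM between 2 related enzymes within each of the 33 libraries, by group; bars are group means, colour gives the sex and the diamond is the library labelled KI ASK1i replicate 5. The KI means lie below the WT means in each of the 4 panels, from 2.59 against 1.15 for Ehhadh minus Hsd17b4 to 0.17 against -3.56 for Cyp4a14 minus Cyp4a10 on control chow.

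All 9 genes had lower fitted levels in male than in female libraries, with 0 past the adjusted threshold in edgeR, where 1.49% of all genes were called, and 7 at an unadjusted p under 0.05, as 14% of all genes were. The differences closest to it were those of Acot3 (-1.47, SE 0.43, adjusted p = 0.08) and Cyp4a10 (-1.90, SE 0.58, adjusted p = 0.0937). In the WT libraries alone, where 6.62% of all genes were called, Cyp4a10 (-0.99, adjusted p = 0.0185) and Cyp4a14 (-1.07, adjusted p = 0.0305) passed. DESeq2 on all libraries called 3 of 9 (Cyp4a10, Cyp4a14 and Acot3) and 2.87% of all genes. The WT fit does not hold replicate 5. The values over all libraries depended on that library, which is female. Without it 8 of 9 genes were lower in males, Acaa1b was 0.05 higher, and the differences of Acot3 and Cyp4a10 were -0.82 (SE 0.33, edgeR adjusted p = 0.152) and -0.95 (SE 0.30, adjusted p = 0.0711). Cyp4a14 alone of the 9 then passed in edgeR (-1.19, adjusted p = 0.0379), where 4.4% of all genes were called, and DESeq2 called Cyp4a10 and Cyp4a14 and 6.47% of all genes. Cyp4a14 had 4861 ± 2367 CPM (SD, n = 7) in WT control females and 1183 ± 643 CPM (n = 3) in WT control males. On the ASK1i diet the WT means were closer, 2810 ± 1269 CPM (n = 4) in females and 2248 ± 595 CPM (n = 4) in males. Cyp4a10 had 3798 ± 1340 CPM (n = 7) and 1183 ± 365 CPM (n = 3) in WT control females and males. Sex and the P titles are mixed in these means. The P libraries of WT control, 1P and 2P, are males, and those of WT ASK1i are females. For Cyp4a14 the former had 917 and 716 CPM, against 1917 CPM in the numbered WT control male. The latter had 1997 and 1539 CPM, against 4291 and 3411 CPM in the numbered WT ASK1i females. Female means exceeded male means for 9 of 9 genes in WT control and in WT ASK1i and for 6 of 9 in KI control, which has 1 female. In KI ASK1i they did so for 9 of 9 genes with replicate 5 and for 4 of 9 without it. Among the other omega hydroxylases, Cyp4a12a and Cyp4a12b, known as male-specific in mice, were higher in males by 6.32 (SE 0.90) and 5.29 (SE 0.75), with edgeR adjusted p-values of 0.000109 and 0.000102.

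Within WT liver several pairs of the genes varied together. After group-by-sex means were removed from log2 CPM of the 18 WT libraries, 34 of the 36 pairs had a positive Pearson r (median 0.30). Leaving out the 2 libraries farthest from the median of 1 gene of each pair, 26 were positive, with r from -0.64 to 0.93. Adjusted over the 36 pairs, 5 pairs passed by both Pearson's r and Spearman's rho (permutation within group and sex, 100000 resamples). Acot3 with Acot4 was closest, with r = 0.94 and rho = 0.91; both permutation p-values were 1e-05, the smallest the resamples can give, and 0.00036 after adjustment. Leaving out the 2 libraries farthest from the median of Acot3, r was 0.93. In the WT ASK1i libraries, replicates 1P, 2, 2P, 3, 4, 5, 6 and 7 had 227, 23.4, 223, 32.3, 99.7, 142, 78.8 and 187 CPM of Acot3. In the same order they had 69.8, 30.5, 72.1, 32.2, 49.7, 55.6, 33.2 and 70.2 CPM of Acot4, so the libraries high in one were high in the other.

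Cyp4a10, Cyp4a14 and Acot1 also varied together. Cyp4a10 with Cyp4a14 had r = 0.91 and rho = 0.89 (permutation p = 3e-05 for each, adjusted 0.00054), and r was 0.84 without the 2 farthest libraries. Acot1 had r = 0.83 and rho = 0.77 with Cyp4a10 (permutation p = 0.00073 and 0.00109, adjusted 0.00657 and 0.0131) and r = 0.81 and rho = 0.71 with Cyp4a14 (permutation p = 0.00027 and 0.00156, adjusted 0.00324 and 0.014). Without the 2 farthest libraries these were 0.56 and 0.61, so their size rests in part on those libraries. Hsd17b4 with Acaa1b had r = 0.79 and rho = 0.69 (permutation p = 0.0011 and 0.00382, adjusted 0.00792 and 0.0275), and 0.53 without the 2 farthest libraries. Hsd17b4 also passed by Pearson's r, but not by rho, with Cyp4a10 (r = 0.70, permutation p = 0.00943, adjusted 0.0485; rho = 0.37, permutation p = 0.147, adjusted 0.408) and with Cyp4a14 (r = 0.70, permutation p = 0.00742, adjusted 0.0445; rho = 0.49, permutation p = 0.0477, adjusted 0.271). Without the 2 farthest libraries these were 0.39 and 0.44. Acot3 and Acot4 had r between -0.15 and 0.07 with Cyp4a10 and Cyp4a14, and between -0.64 and -0.37 without the 2 farthest libraries. Acot1, their neighbour on chromosome 12, had r = 0.10 with Acot3 and r = 0.14 with Acot4 (adjusted permutation p = 0.828 and 0.81). Depth scaling and hepatocyte content are shared by all pairs of a library, and their part was not tested.

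In the 14 KI libraries other than replicate 5, Cyp4a10 with Cyp4a14 had r = 0.89 (permutation p = 0.00013, adjusted 0.00468), whereas Acot3 with Acot4 had r = 0.41 (permutation p = 0.175, adjusted 0.393). The difference between the genotypes was not tested. Levels of Acot3 in these libraries were low, from 1.16 to 9.95 CPM. Those of Cyp4a14 were low too, from 0.417 to 3.33 CPM in KI control and from 0.609 to 34.0 CPM in the 9 KI ASK1i libraries. In the 14 WT libraries with numbered titles, r was 0.94 for Acot3 with Acot4 and 0.89 for Cyp4a10 with Cyp4a14. Of 12127 other genes ranked by their r with the mean standardised level of the 9, the 3 highest over the 18 WT libraries were Hadha (0.93), an alpha subunit of the mitochondrial trifunctional protein, the sodium bicarbonate cotransporter Slc4a4 (0.93), and the mitochondrial thioesterase Acot2 (0.93), part of whose reads Acot1 shares.

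**Figure D4:**
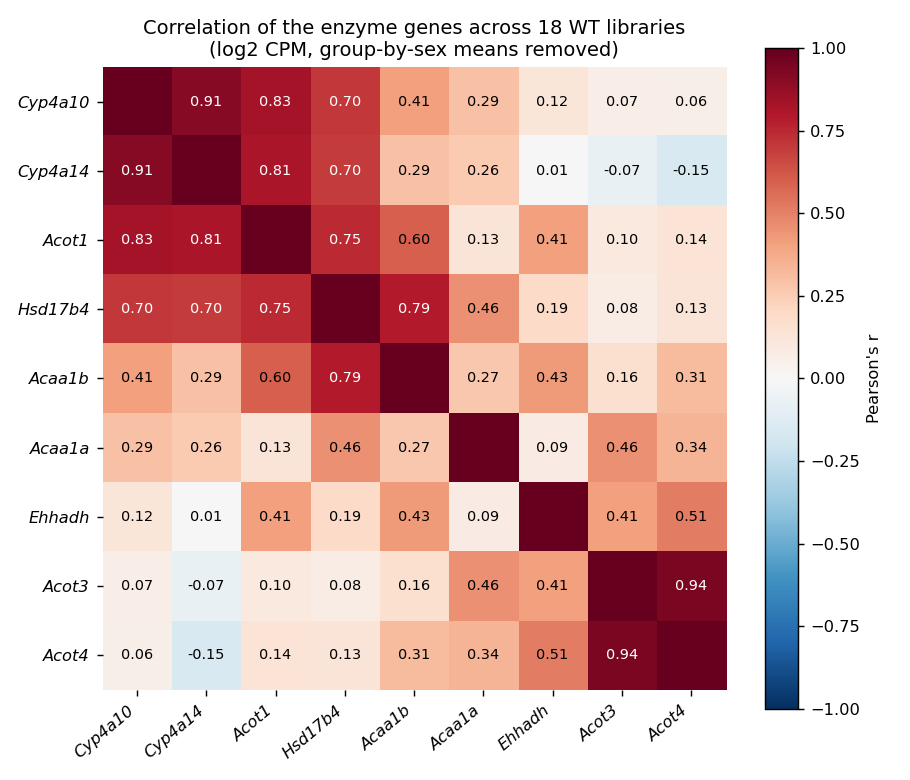
Pearson's r between the 9 genes across the 18 WT libraries, computed on log2 CPM with group-by-sex means removed; both axes list the genes, and colour runs from -1 (blue) to 1 (red). The block of Cyp4a10, Cyp4a14 and Acot1 (0.81 to 0.91) and the pair of Acot3 and Acot4 (0.94) stand out, with values near 0 between them.

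Other genes of the same processes had a smaller median change. Of 78 others tested in 5 lists, 56 were lower and 7 higher in KI on control chow, with a median log2 fold change of -0.75 against -2.68 for the 9. Of all genes, 28.9% were called lower in that comparison. Among the 78, 23 were lower than Hsd17b4 (-1.15) and 2 were lower than the median of the 9. Among 23 other enzymes and carriers of peroxisomal beta-oxidation, 17 were lower and 1 higher (median -1.04). The long-chain acyl-CoA synthetase Acsl1 was at -2.07 (SE 0.29) and the dienoyl-CoA isomerase Ech1 at -1.38 (SE 0.19). The dienoyl-CoA reductase Decr2 was at -1.38 (SE 0.20) and the phytanoyl-CoA hydroxylase Phyh at -1.08 (SE 0.14). Nudt19, a coenzyme A hydrolase, was the 1 that rose (0.29, SE 0.12, adjusted p = 0.0419).

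Among 14 other omega oxidation genes, 10 were lower and 2 higher (median -1.15). Cyp4v3 was at -1.20 (SE 0.12) and Cyp4f13 at -0.99 (SE 0.13), while Cyp4f18, which is known from neutrophils, rose by 3.44 (SE 0.38) and Cyp4f16 by 2.14 (SE 0.27). Among 10 other thioesterases, 6 were lower and 1 higher (median -0.65). The acetyl-CoA thioesterase Acot12 was at -1.86 (SE 0.29), the peroxisomal Acot8 at -0.99 (SE 0.17) and the cytosolic Acot7 at -0.65 (SE 0.12), and the mitochondrial Acot9 rose by 1.36 (SE 0.19). Cyp4f18 and Acot9 rose in libraries where 14 of 14 neutrophil markers also rose (median 6.91), and the part of those cells in either rise was not tested.

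Most genes that build peroxisomes were lower. Of 16 peroxins tested, 14 were lower, by log2 fold changes from -1.99 to -0.50, and 0 higher (median -0.69), among them the import docking factor Pex14 (-0.86, SE 0.10), and Pex16 (-0.97, SE 0.14) and Pex3 (-0.68, SE 0.09) of membrane assembly. Of 15 peroxisomal enzymes outside fatty acid oxidation, 9 were lower and 3 higher (median -0.60). Catalase (Cat) was at -1.78 (SE 0.26), Pipox at -1.13 (SE 0.16) and Ddo at -0.72 (SE 0.13), and Far1, an enzyme of ether lipid synthesis, rose by 1.46 (SE 0.21). Hepatocyte markers had a median of -0.67, with 11 of 14 lower and 0 higher, and the peroxin and enzyme medians lay near it. Of 13 macrophage and Kupffer cell markers 13 rose (median 1.96), and of 11 stellate cell and myofibroblast markers 8 rose (median 0.73).

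Of 16 genes of PPAR-alpha, its relatives and cofactors, 8 were lower and 1 higher (median -0.32). Ppara fell from 282 ± 94.1 CPM (SD, n = 10) to 100.5 ± 21.8 CPM (n = 5), a log2 fold change of -1.38 (SE 0.26, edgeR adjusted p = 5.81e-05). Its partner receptor Rxra was at -0.47 (SE 0.09), Rxrg at -1.18 (SE 0.26) and the coactivator Ppargc1b at -1.23 (SE 0.29). On the ASK1i diet, replicate 5 included, Ppara was at -1.02 (SE 0.20, edgeR adjusted p = 8.48e-05).

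On the ASK1i diet, replicate 5 included, 57 of the 78 other genes were lower in KI and 9 higher (median -0.72). Of all genes, 28.8% were called lower there. By list, 18 were lower and 2 higher of 23 in beta-oxidation, 8 and 3 of 14 in omega oxidation, 6 and 1 of 10 thioesterases, 14 and 0 of 16 peroxins, and 11 and 3 of 15 other peroxisomal enzymes. With the inhibitor in WT, 4 of the 78 rose and 0 fell in edgeR, where 1.4% of all genes were called. Among the 4 were the polyamine oxidase Paox (0.70, SE 0.12), the isocitrate dehydrogenase Idh1 (0.44, SE 0.11) and Pmvk of the mevalonate pathway (1.14, SE 0.18). In KI with the inhibitor, replicate 5 included, 0 of the 78 passed in edgeR, where 0.0536% of all genes were called. An unadjusted p under 0.05 was reached by 16 of the 78 and by 10.3% of all genes. The list counts were not made without replicate 5.

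**Figure D5:**
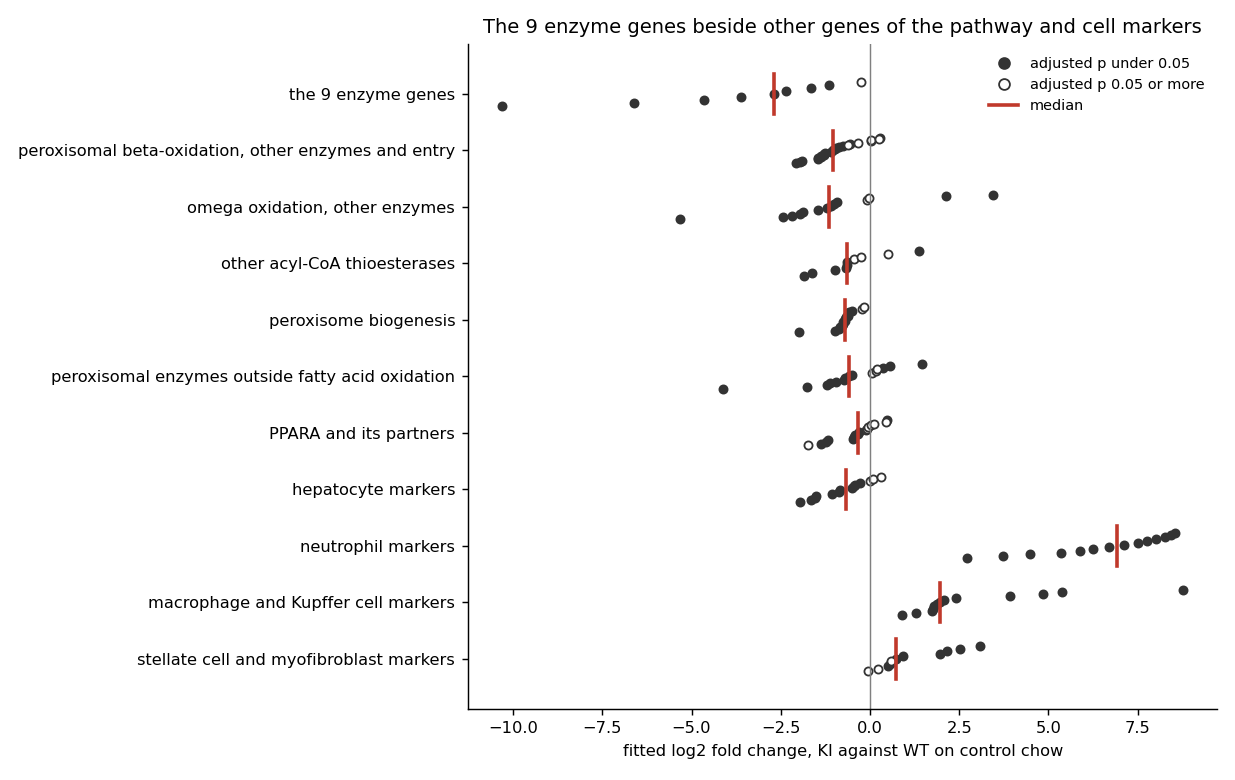
Fitted log2 fold changes for KI against WT on control chow (x axis) of the 9 genes and of each gene in the 10 lists of pathway genes and cell markers; filled points passed the adjusted threshold of 0.05, open points did not, and red bars are medians. The median is -2.68 for the 9 genes, between -1.15 and -0.32 for the other pathway lists, and 6.91 for neutrophil markers.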

How the data were processed

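Polyadenylated RNA of 33 mouse liver libraries was sequenced. Per the labels' protocols, frozen liver was extracted with Qiagen miRNeasy and sequenced as TruSeq Stranded mRNA libraries. Per the submitters' processing notes, the authors used CASAVA 1.8.2, STAR 2.4 and RSEM 1.2.14 with the mouse build mm10; which settings and gene models these tools had is not given in the sources used here. Each deposited number is an unnormalised RSEM expected count of 1 gene, with reads of near-identical genes divided among them by estimate. Deposited gene starts count from 0 and are given here from 1.

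After rounding, counts entered edgeR 4.0.16 under R 4.3.3 (TMM, filterByExpr by group, quasi-likelihood F test, robust) in 1 model of all 33 libraries with group, sex and title set (titles numbered plainly or with a P). Benjamini-Hochberg adjusted p-values cover 14934 genes per comparison; the threshold is 0.05 and every test is two-sided. SE is the standard error of a log2 fold change, and 95% intervals are normal ones from it. Log2 CPM for pairs and correlations used a prior count of 2, which pulls low values together. The pair tests enumerated all regroupings of libraries. Promoters are those of RefSeq (GRCm38.p6), and shared windows come from 1 GENCODE transcript per gene against all transcripts of other genes. No 2 libraries of a group looked like 1 library sequenced again: the lowest chi-square per gene was 28.7 over 128 pairs and 10922 genes. This check cannot tell separate mice from separate preparations of 1 mouse.

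The 9 genes and all lists were chosen with earlier results of these data known, and the lists hold genes of known role and not genes picked by their change. Named were the 9 genes, from each pathway list up to 4 genes with the smallest p on control chow and any called for a diet, and the 3 genes most alike. Some genes that this rule names are not reported here. Ppara's value on the ASK1i diet, Cyp4a12a, Cyp4a12b, Cyp4a31, Cyp4a32 and Nudt19 were named after their values were seen. Alternatives were RLE size factors, DESeq2 1.42.0, no count filter, group alone, the L code, a replicate block, numbered titles, males or WT alone, hepatocyte marker scaling, a prior count of 0.5, and each library left out. Correlations in numbered titles and in KI, DESeq2 without KI ASK1i replicate 5, and pair tests within sex were added after seeing the data.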

Additional observations from a re-analysis of the deposited data

Results flagged for a closer look

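In 36 sets of values (9 genes in 4 groups of 5 to 10 libraries each), 9 held a library that lay far from the rest of its group. The rule was Dixon's, the gap to the nearest value over the range, on CPM without logs. Its rate of about 1 in 20 by chance is for independent normal values. These sets share libraries, and their values were not tested for normality. Of the 9, 8 were the library labelled KI ASK1i replicate 5, always the highest of its group. It had 1503 CPM of Ehhadh, 492 CPM of Hsd17b4, 1029 CPM of Acaa1b, 3200.1 CPM of Cyp4a10, 6555 CPM of Cyp4a14, 69.3 CPM of Acot1, 59.0 CPM of Acot3 and 35.7 CPM of Acot4. Its Acaa1a level, 218 CPM, lay within its group. The same library had 130765 CPM of summed hepatocyte markers and 15.0 CPM of summed neutrophil markers, both within or near the WT ranges. The other set was Cyp4a10 in WT ASK1i, where replicate 5, a female library, had 4345 CPM against 1405 to 2353 CPM in the other 7.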

How the results depend on the processing

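Depth did not limit the genes: the fewest counts of any of them in a library were 15. The count of the 9 genes called for KI against WT was 8 or 9 for control chow, and between 7 and 9 for ASK1i, under every alternative run, and the 3 family sums and the 4 pair shifts kept their calls in these comparisons. Scaled to hepatocyte markers, Acaa1a turned to 0.43 (adjusted p = 0.0318) for control chow and 0.27 (adjusted p = 0.101) for ASK1i, and with group alone it was called on control chow (-0.42, adjusted p = 0.0421). The counts that moved were those of DESeq2, which called 1 gene for the inhibitor in KI, 1 for the interaction and 3 for sex (2 without KI ASK1i replicate 5), and for sex the L code (2) and WT libraries alone (2). With 1 library left out, the number called for sex ran from 0 to 2: it was 2 without WT ASK1i replicate 7, 1 without KI ASK1i replicate 4 and 1 without KI ASK1i replicate 5; the cause was not tested. On the ASK1i diet 8 to 9 were called with 1 library left out, and 8 on control chow. Deviations of same-numbered libraries had a median r of 0.02 (37 pairs, r from -0.21 to 0.36, 14 above 0.1), against -0.01 for other numbers. The medians lay close, but this check cannot exclude that some numbers pair libraries. With the replicate block, 8 genes were called for genotype on control chow, 9 under ASK1i and 0 in each other comparison. With numbered titles alone, Acaa1b on control chow was -1.79, and in WT Ehhadh with Cyp4a10 had r = 0.73 against 0.12 in all 18 libraries.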
